A study of Homo sapiens with 4 samples.

Results

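The transcripts described here are 4 mouse cytokine chain genes, Il23a (ENSMUSG00000025383), Il12a (ENSMUSG00000027776), Il12b (ENSMUSG00000004296) and Tnf (ENSMUSG00000024401), of the 32285 mouse genes counted in host cells around human breast tumours. Il23a was picked from these same data for its difference between the 2 pools in neutrophil-like cells, and the other 3 were picked as its partner chain, its closest relative and a cytokine made beside it. They were read in barcodes in which mouse genes took at least 0.9 of the gene counts, which left 14238 of 17757 barcodes of the aged matrix pool and 13102 of 16965 of the young matrix pool. Human cells of the line MCF10DCIS.com, which models ductal carcinoma in situ, were grown for 12 days on decellularised mammary matrix (dECM). The matrix came from mice of 18 months or more in the aged group and of 2 to 3 months in the young group. Seeded pieces were placed in the left or right fat pad of Rag1-/- recipients, and tumour with adjacent stroma was taken after 4 weeks. Aged and young therefore name the implanted matrix and not the host. Both groups share the Rag1-/- host, which lacks mature T and B cells, the single tumour line, dead cell removal and hashing with human-HTO antibodies. The age and strain background of the recipients are not given in the sources used here, and no label ties a hashing tag to an animal. How many animals each pool holds could not be worked out. Each group has 1 gene expression library, so there is no replicate and no test between the groups. Intervals are exact 95% intervals (Poisson for counts, Clopper-Pearson for shares) that cover counting error only, and where a count is 0 the limit given is that of 3 counts over the total.

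The interleukin-12 family consists of secreted cytokines that are each made of a pair of chains. The Il12b product joins that of Il23a to form IL-23 and that of Il12a to form IL-12, while the Ebi3 product joins that of Il12a to form IL-35 and that of Il27 to form IL-27. The Il23a chain acts as part of IL-23 once it is joined to the Il12b chain. IL-12 induces interferon-gamma in NK and T cells, IL-23 sustains lymphocytes that make IL-17, and TNF, shed from the cell surface by the protease ADAM17, activates NF-kB through its receptors.

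After filters and removal of barcodes scored as doublets, 12924 mouse cells of the aged pool and 11946 of the young pool remained, with medians of 2261 and 2285 UMIs (unique molecular identifiers, each marking 1 captured transcript). They formed 24 clusters, of which 11 carried neutrophil markers. Neutrophil-like cells made up 9883 of the aged cells (76.5%) and 9546 of the young cells (79.9%). With the pools summed, S100a8 and S100a9 were found in 99.4% and 99.8% of them, the highest shares among the neutrophil markers. G0s2 was found in 86.8%, Hdc in 81.6%, Csf3r in 78.5%, Cxcr2 in 55.9% and Retnlg in 49.9%. Mmp9 was found in 28.0%, Mmp8 in 14.3%, Ly6g in 7.80%, Ngp in 3.21%, Ltf in 1.47% and Camp in 0.885%. Cluster 7, described below, met S100a9, Csf3r, Cxcr2, Mmp9, G0s2 and Hdc, but not S100a8 or Retnlg. The 6 chain genes were kept out of the clustering. The pools share 190 barcode sequences, 143 of them in kept mouse cells. Tumour cells held a median of 250 mouse UMIs in the aged pool and 223 in the young pool, which is the background of mouse RNA in their barcodes. Barcodes with a mouse share of at most 0.1 counted as tumour cells. Free mouse RNA and RNA of a mouse cell caught in the same barcode cannot be told apart there.

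Il23a was carried by neutrophils. Neutrophil-like cells held 92.4% of its UMIs in kept aged cells and 86.8% in kept young cells. Il23a had 2900 UMIs in aged neutrophil-like cells, or 127 per 1000000 mouse UMIs of the class (CPM; 122 to 131), and 1822 UMIs in young ones, or 78.2 CPM (74.6 to 81.8). Every other named class with at least 100 cells in both pools was far below that. Monocyte-like cells had 9.29 and 18.8 CPM in the aged and young pools, macrophage-like cells 10.6 and 12.4 CPM, and fibroblast-like cells 2.31 and 3.05 CPM. Plasmacytoid dendritic-like cells held no Il23a UMI in 30 aged and 31 young cells, which allows up to 10.0% and 9.68% of such cells with a UMI.

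The share of cells with an Il23a UMI cannot by itself set neutrophils apart from tumour barcodes, which hold far fewer mouse UMIs. It was 6.84% (676 cells) in aged and 6.14% (586 cells) in young neutrophil-like cells, at median depths of 1963 and 2036 UMIs. In tumour cells with at most 2% mouse UMIs, which should lack mouse Il23a, it was 1.03% and 0.750% at median depths of 206 and 183 mouse UMIs, though these cells were taken for their few mouse UMIs. In all tumour cells it was 1.70% and 1.37% at median depths of 250 and 223 mouse UMIs, with up to 23 and 10 Il23a UMIs in a cell. Per mouse UMI, Il23a stood at 66.8 and 33.4 CPM in all tumour cells. It stood at 36.35 and 28.75 CPM in those with at most 2% mouse UMIs, beside 127 and 78.2 CPM in neutrophil-like cells. Monocyte-like cells, with an Il23a UMI in 2.84% and 2.94%, were not separated beyond counting error from fibroblast-like cells, at 2.36% and 3.25%. No expression is therefore read from that share. Median depths were 7611 and 7565 UMIs in the monocyte-like cells and 20996 and 23537 in the fibroblast-like cells. In the monocyte-like class 3 cells held 40.7% of the aged and 48.9% of the young Il23a UMIs.

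Tnf was spread more widely over myeloid cells. Neutrophil-like cells held 74.7% of its UMIs in the aged pool and 71.6% in the young pool, where they were 76.5% and 79.9% of the mouse cells. Where a barcode had to be 0.98 mouse, these shares of the UMIs were 42.6% and 41.2%. That purity kept 4389 aged and 3809 young mouse cells, of which only 1677 and 1728 were neutrophil-like. Its level in neutrophil-like cells was 303 CPM (296 to 311) in the aged pool and 228 CPM (222 to 234) in the young pool. Macrophage-like cells had 181 CPM (171 to 191) and 195 CPM (185 to 206). That class joins cluster 9, led by Pf4, Mmp12 and Arg1, and the smaller cluster 20, whose leading genes Acp5, Ctsk, Dcstamp and Ocstamp are known from osteoclasts and hold none of the macrophage list. Cluster 9 had 220 CPM (207 to 233) and 260 CPM (246 to 274) of Tnf, and cluster 20 had 62.5 CPM (51.1 to 75.6) and 22.2 CPM (16.1 to 29.9), so the pools differ in opposite directions within the class. Monocyte-like cells had 114 CPM (105 to 123) and 80.8 CPM (73.0 to 89.1), where 3 cells held 30.2% of the aged and 23.0% of the young Tnf UMIs. NK-like cells had 46.2 and 44.9 CPM, and fibroblast-like cells 9.48 and 5.02 CPM. With cells of at least 2000 UMIs thinned to that depth, a Tnf UMI was found in 18.7% of aged and 16.9% of young neutrophil-like cells. In macrophage-like cells it was found in 22.6% and 21.3%. Shallower cells were left out, which kept 4760 of 9883 aged and 4927 of 9546 young neutrophil-like cells. Of the macrophage-like cells 535 of 564 aged and 516 of 540 young ones were kept. In tumour cells with at most 2% mouse UMIs the unthinned share was 3.32% and 2.46%, and in all tumour cells 5.95% and 5.60%, against 19.8% and 17.5% unthinned in neutrophil-like cells. These shares do not compare levels, since tumour cells hold far fewer mouse UMIs. Per mouse UMI, Tnf stood at 219.5 and 210.6 CPM in all tumour cells. It stood at 137.6 and 120.2 CPM in those with at most 2% mouse UMIs.

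Il12a divided between 2 places. Most of its UMIs lay thinly over neutrophil-like cells, with 258 UMIs in 209 aged cells (11.3 CPM, 9.94 to 12.7) and 255 UMIs in 209 young cells (10.9 CPM, 9.64 to 12.4). Of the aged neutrophil-like cells with Il12a 82.8% held exactly 1 UMI, and of the young ones 84.2%. The densest class was a small one. Plasmacytoid dendritic-like cells, named by Siglech, Ccr9, Klk1 and Cox6a2, had 39 UMIs in 15 of 30 aged cells (192 CPM, 136 to 262) and 44 UMIs in 19 of 31 young cells (213 CPM, 155 to 286). Macrophage-like cells held 2 and 1 Il12a UMIs. In tumour cells with at most 2% mouse UMIs 0.0739% and 0.136% had an Il12a UMI, and in all tumour cells 0.350% and 0.282%, beside 2.11% and 2.19% of neutrophil-like cells. Fibroblast-like cells, which are far deeper, had 1.08% and 1.24%, and 0.198% and 0.0% after thinning, where neutrophil-like cells had 2.48% and 2.23%. Tumour cells hold far fewer mouse UMIs, and per mouse UMI all of them had 6.08 and 4.77 CPM of Il12a, on 8 and 7 UMIs.

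**Figure D1:**
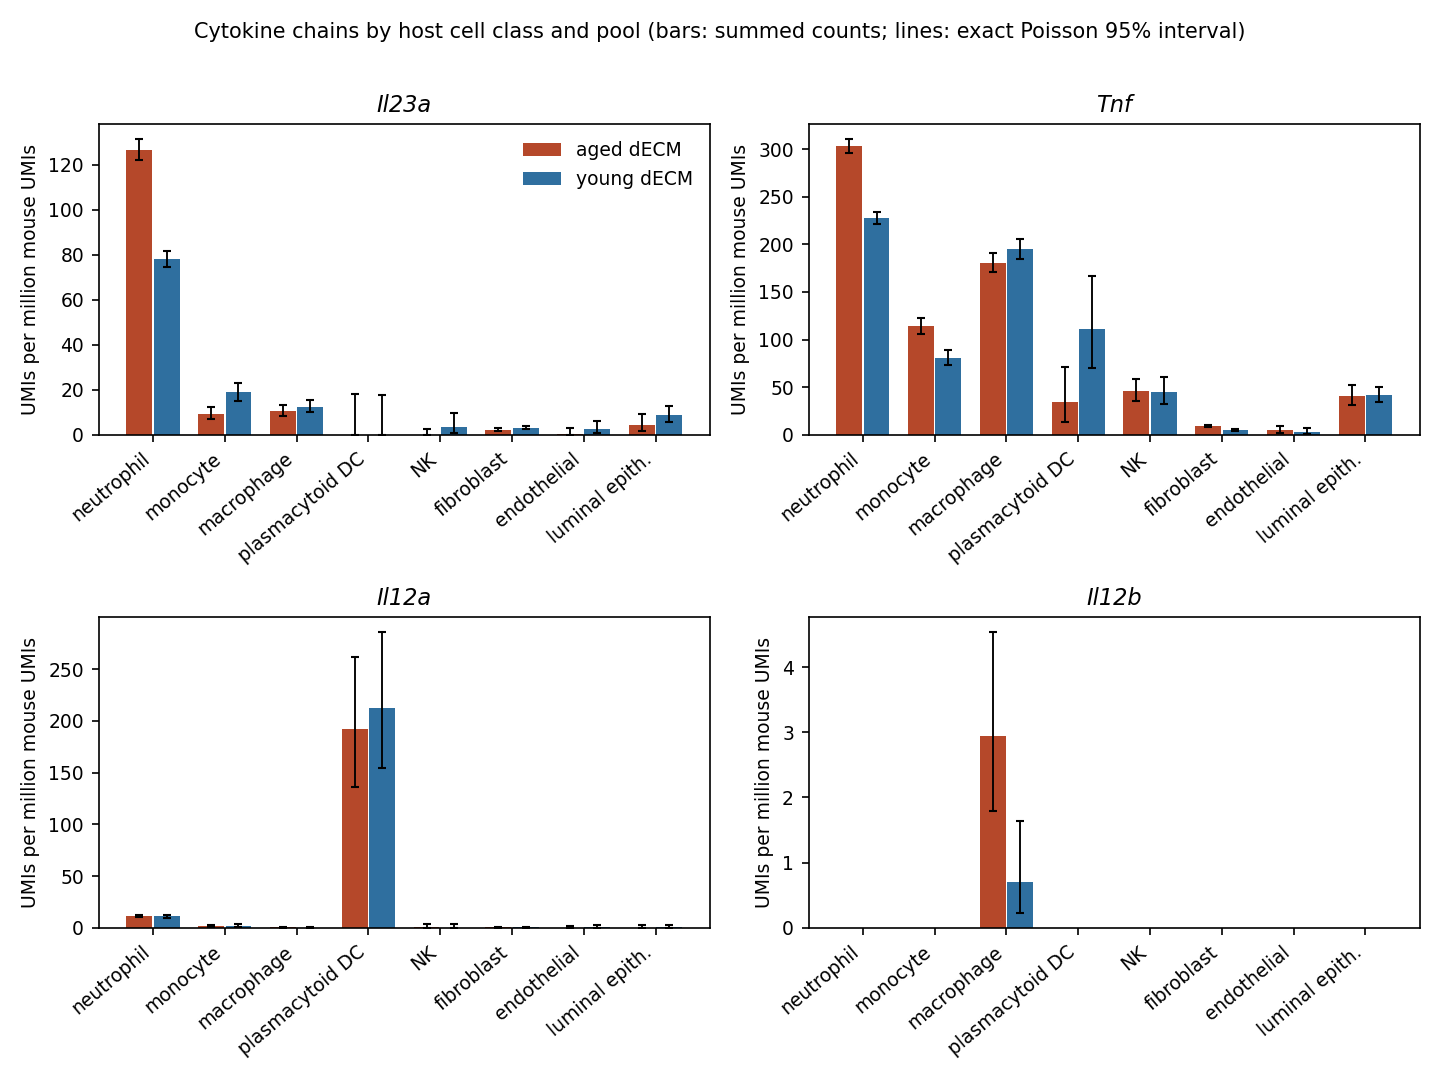
CPM of Il23a, Tnf, Il12a and Il12b (vertical axes, linear and different in each panel) in 8 host cell classes, aged matrix pool left of young; lines are exact Poisson 95% intervals, drawn for Il12b only where a UMI was found. Il23a stands at 127 and 78.2 in neutrophil-like cells, Il12a at 192 and 213 in plasmacytoid dendritic-like cells, and Il12b appears in macrophage-like cells alone, at 2.94 and 0.703.

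Il12b, the chain that both IL-23 and IL-12 need, was nearly missing from the host cells. No neutrophil-like cell held an Il12b UMI in either pool, which allows shares of up to 0.0304% of aged and 0.0314% of young cells with one, or 0.131 and 0.129 CPM. Among kept cells it was found in 3 aged cells, with 12, 5 and 3 UMIs, and in 4 young cells, with 2, 1, 1 and 1 UMIs. All 7 lay in cluster 9, the macrophage-like cluster led by Pf4, Mmp12 and Arg1. Of these, 6 held 68 to 140 UMIs of the complement gene C1qa, while the aged cell with 3 Il12b UMIs held 6, along with 68 of the class II gene H2-Ab1, 1 of Ccr7, 2 of Fscn1 and 1 of Cacnb3. Macrophage-like cells as a class had 2.94 CPM (1.79 to 4.54) in the aged pool and 0.703 CPM (0.228 to 1.64) in the young pool. A single aged cell held 12 of the 20 aged UMIs, so that level rests on 1 cell.

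Il12b counts outside the kept cells outnumbered those inside. Of 137 Il12b UMIs in all barcodes of both pools, 48 lay in 9 mouse barcodes and 25 in kept cells. The barcodes nearest to the purity limit show what it sets: the lowest mouse share among kept Il12b cells was 98.4%, and the highest among mixed barcodes was 86.3%. That mixed aged barcode held 48 Il12b UMIs, 124 C1qa UMIs and 99 UMIs of H2-Ab1. Among mouse barcodes removed as doublets, 1 young barcode held 22 Il12b UMIs. It had 26 UMIs of Ccr7, 21 of Fscn1 and 6 of Cacnb3, which are among the markers of mature dendritic cells. It held 0 UMIs of C1qa and also 0 of the class II gene H2-Ab1, out of 11981 mouse UMIs. Its doublet score was 0.276 where removal began at 0.25. No cluster was named as conventional or mature dendritic cells.

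The pairs that need Il12b were not found in the same mouse cells. No mouse barcode in either pool, kept or removed as a doublet, held Il12b with Il23a or Il12b with Il12a. So few cells held Il12b that a meeting could hardly have been seen: the product of the shares gives 0.174 aged and 0.223 young kept cells with Il23a and Il12b, and 0.0571 and 0.0830 with Il12a and Il12b. Outside mouse barcodes, 2 mixed young barcodes held both Il23a and Il12b.

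The other partner, Ebi3, was present in neutrophils and in other myeloid cells. Ebi3 had 664 UMIs in aged neutrophil-like cells (29.0 CPM, 26.8 to 31.3) and 689 UMIs in young ones (29.6 CPM, 27.4 to 31.8). Its share of cells was 6.11% and 6.37%, against 0.148% and 0.205% in tumour cells with at most 2% mouse UMIs and 0.8996% and 1.18% in all tumour cells. Tumour cells hold far fewer mouse UMIs, and per mouse UMI all of them had 14.4 and 19.1 CPM of Ebi3. Il12a and Ebi3, the chains of IL-35, were found together in 18 aged and 26 young mouse cells. Within neutrophil-like clusters the counts were 17 and 24, beside 15.9 and 16.1 from the products of the shares taken cluster by cluster. After thinning to 2000 UMIs these became 4 cells where the products give 7.10, and 8 cells where they give 5.73, so the counts lay on both sides of the products. In plasmacytoid dendritic-like cells, where Il12a was densest, Ebi3 had 0 UMIs in the aged pool and 1 in the young pool. Il27 was scarce, with 27 and 30 UMIs in aged and young neutrophil-like cells and 13 and 10 in monocyte-like cells. Il27 met Ebi3 in 4 aged and 9 young mouse cells, where the products give 2.50 and 2.79. Within neutrophil-like clusters these were 3 cells beside a product of 3.94 in the aged pool and 5 beside 3.48 in the young pool, with 0 in both after thinning.

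Il23a and Tnf, which form no cytokine together, met in more cells than any other pair examined. Such counts depend on how many cells hold each chain, so they do not compare the pairs. Il23a and Tnf were found together in 416 aged and 320 young neutrophil-like cells. Taken cluster by cluster the products of the shares give 252.6 and 190.5, so the counts were 1.65 and 1.68 times those products, and 1.61 and 1.69 times after thinning. Of the aged neutrophil-like cells with Il23a 61.5% also held Tnf, against 16.7% of those without Il23a, and in the young pool 54.6% did, against 15.1%. Those shares pool all neutrophil-like clusters. Within cluster 7, described below, they were 80.4% against 49.5% in the aged pool and 76.9% against 46.5% in the young pool. Within cluster 1 they were 64.0% against 32.4% and 56.7% against 34.6%. With the clusters pooled, Tnf detection also climbed with the Il23a count of the cell. In the aged pool it was 16.7% at 0 Il23a UMIs, 51.5% at 1, 59.2% at 2, 66.7% at 3 or 4 and 77.1% at 5 or more. In the young pool it was 15.1% at 0, 40.1% at 1, 57.6% at 2, 67.0% at 3 or 4 and 77.1% at 5 or more. Median depth differed much less, from 1942 to 2390 UMIs over the aged bins and 2012 to 2580 over the young bins. The climb was not particular to Tnf. Il1a detection rose from 19.5% at 0 Il23a UMIs to 69.3% at 5 or more in the aged pool. In the young pool it rose from 19.6% to 65.1%, with a fall at 3 or 4. Nfkbia rose from 5034 to 14470 CPM in the aged pool and from 5412 to 13230 CPM in the young pool. Il12a did not climb steadily. In the aged pool it was 1.99% at 0, 3.75% at 1, 5.83% at 2, 3.51% at 3 or 4 and 3.01% at 5 or more Il23a UMIs. In the young pool it was 2.13% at 0, 3.58% at 1, 2.17% at 2, 3.77% at 3 or 4 and 1.83% at 5 or more, and in both pools the bins above 1 rest on 2 to 6 cells with Il12a. Cells of 1 library share their sample, and Tnf was picked as a cytokine made beside Il23a with earlier results of these data known. These shares are therefore descriptions of each pool and support nothing further.

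**Figure D2:**
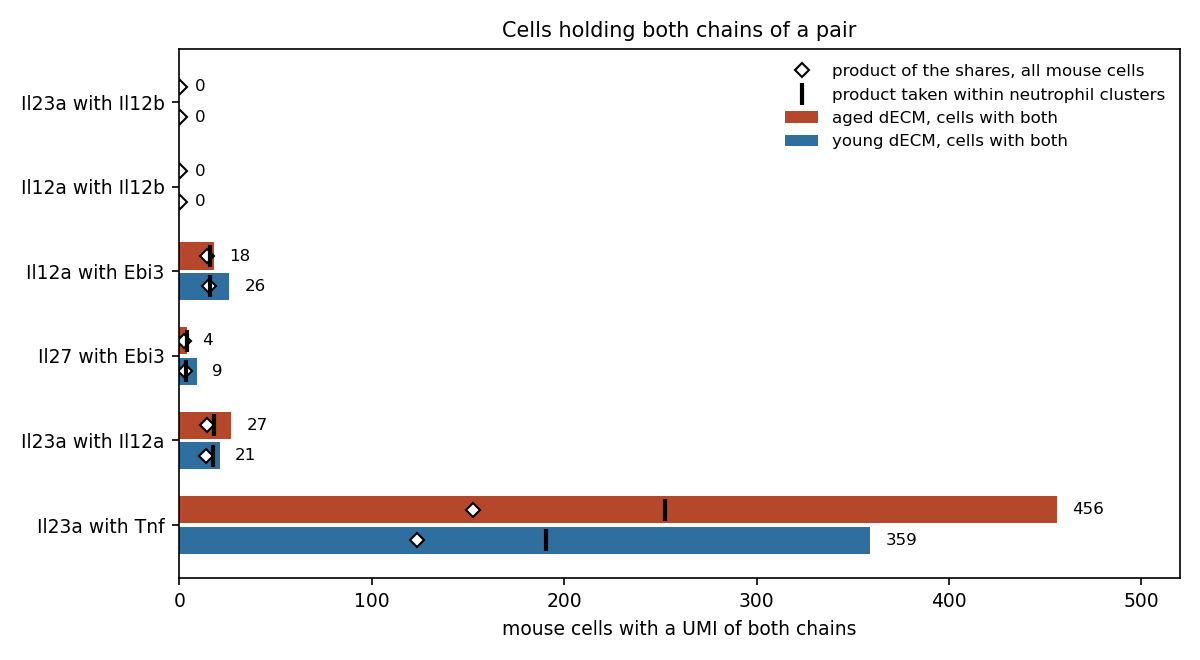
Mouse cells holding a UMI of both chains of a pair (horizontal axis, linear; bars with their counts), aged matrix pool above young; diamonds mark the product of the shares over all mouse cells and ticks the products summed over neutrophil-like clusters. Il23a with Tnf reaches 456 and 359 cells, past the diamonds. The ticks cover neutrophil-like cells only, where the matching counts are 416 and 320, also past the ticks. Both pairs that need Il12b stay at 0.

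Neutrophils were not alike in these chains. Cluster 7, led beside the chains by Gpr84, a receptor for medium-chain fatty acids, and the adhesion gene Icam1, had 851 CPM of Il23a (806 to 898) in the aged pool and 542 CPM (500 to 586) in the young pool. Cluster 1, led by Il1a and the chemokine genes Cxcl3 and Ccl3, had 260 CPM (243 to 276) and 171 CPM (158 to 184). Together these clusters were 21.9% of aged and 19.02% of young neutrophil-like cells and held 79.3% and 68.7% of their Il23a UMIs. They also held 70.7% and 64.1% of the Tnf UMIs of neutrophil-like cells. Tnf reached 1931 and 1600 CPM in cluster 7 and 506 and 427 CPM in cluster 1. At the low end stood cluster 2, led by the stress genes Osgin1 and Ddit3, with 6.75 and 7.73 CPM of Il23a and 63.9 and 58.4 CPM of Tnf, and cluster 5, led by Retnlg and Mmp8, with 8.17 and 10.97 CPM of Il23a and 44.4 and 47.7 CPM of Tnf. Clusters were built on other genes of the same cells, some of which follow these chains, so the contrast between clusters is a description.

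Il12a was arranged differently over the same clusters. It was highest in cluster 1, with 22.9 CPM (18.3 to 28.3) aged and 24.1 CPM (19.4 to 29.6) young, and in cluster 8, led by the stefin genes Csta3 and Stfa2, with 16.3 CPM and 19.9 CPM. Cluster 7 held only 4.26% of aged and 2.75% of young Il12a UMIs of neutrophil-like cells. Over the 22 clusters with at least 50 cells, pools summed, log2(CPM + 1) of Il23a had a Pearson r of 0.76 with Tnf, 0.74 with Ebi3 and 0.26 with Il12a. Clusters share libraries and depth, so these values carry no test. Among 13717 genes the patterns most like Il23a were those of Gpr84 (0.89), Lrrc63 (0.88), Gm47708 (0.86), the prostaglandin E2 receptor gene Ptger2 (0.86) and Hist1h4i (0.86). Most like Tnf were 4833438C02Rik (0.90), the chemokine gene Ccl4 (0.90), Mthfsl (0.89), the cytokine gene Il1a (0.89) and the histidine-degrading enzyme gene Hal (0.88). Most like Il12a were Arid3b (0.84), Gapt (0.84), Gm45715 (0.84), A530032D15Rik (0.83) and Zfp106 (0.83).

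**Figure D3:**
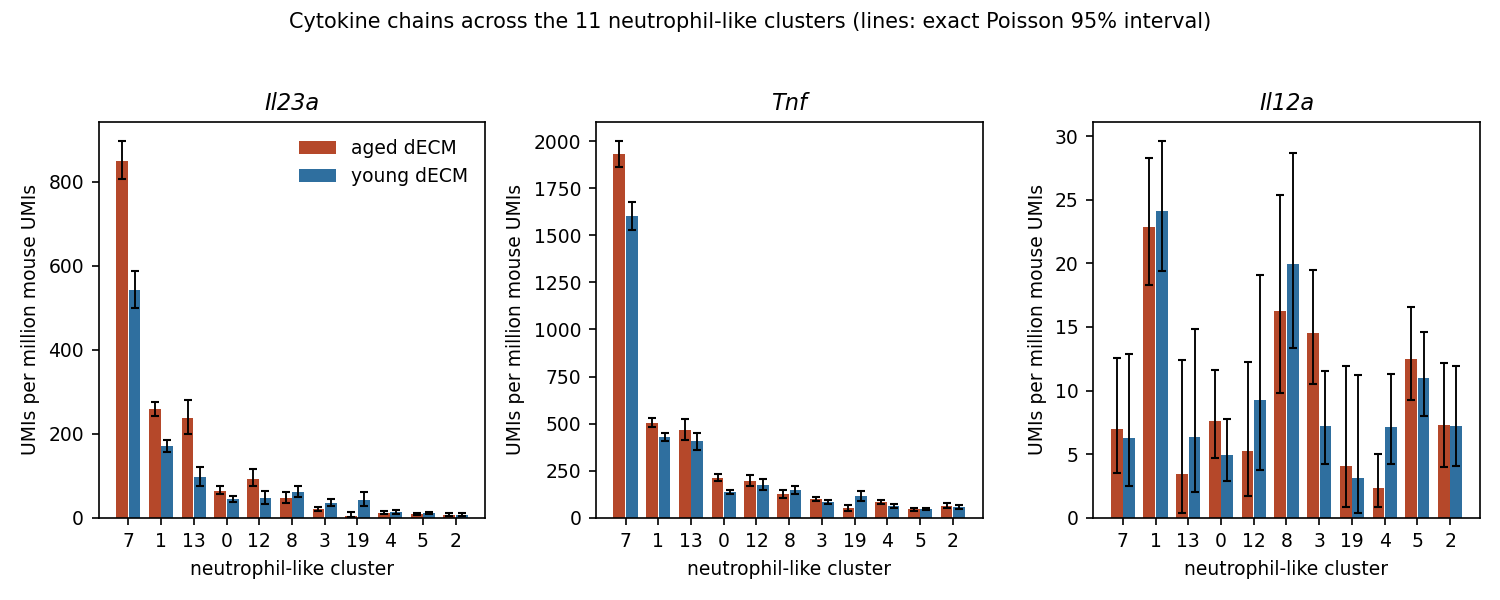
CPM of Il23a, Tnf and Il12a (vertical axes, linear and different in each panel) in the 11 neutrophil-like clusters, aged matrix pool left of young, in the order given on the horizontal axis; lines are exact Poisson 95% intervals. Il23a and Tnf peak in cluster 7, at 851 and 542 and at 1931 and 1600, while Il12a is highest in cluster 1, at 22.9 and 24.1.

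The contrast between the pools was read in neutrophil-like cells. Measured genes were those that reached 20 CPM in one pool or the other and had 100 UMIs or more in all, and a gene was called apart at 1.5-fold or more. Of 3259 measured genes 17 were higher in the aged pool (0.522%) and 2 were lower (0.0614%). Of the 4 chains Il23a and Tnf were measured and Il23a alone was apart, at a fold of 1.62 (1.53 to 1.72) aged over young, which is the value it was picked for and supports nothing further. Tnf was at 1.33-fold (1.28 to 1.38) and Il12a, below the minimum level, at 1.03-fold (0.864 to 1.23). Ranked by fold from the highest, Il23a was at place 9 and Tnf at place 45. The median log2 ratio of all measured genes was 0.05, and scaling by TMM moves every log2 ratio by -0.11.

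The Il23a difference lay in cells with many UMIs more than in the number of cells. Carrying cells held a mean of 4.29 Il23a UMIs in the aged pool and 3.11 in the young pool. Cells with 5 or more were 166 in the aged pool (1.68%, 1.44 to 1.95%) and 109 in the young pool (1.14%, 0.938 to 1.38%), and they held 69.5% and 54.7% of the UMIs. Cells with exactly 1 were 2.96% (2.64 to 3.32%) and 2.92% (2.59 to 3.28%). By share of cells with a UMI the log2 ratio was 0.16, against 0.70 by CPM, so the ratio passes 1.5-fold by UMIs alone. The Poisson intervals take UMIs of 1 cell as independent and are too narrow where UMIs bunch in this way. The most loaded cell held 67 UMIs in the aged pool and 28 in the young pool, and without both the log2 ratio was 0.69.

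**Figure D4:**
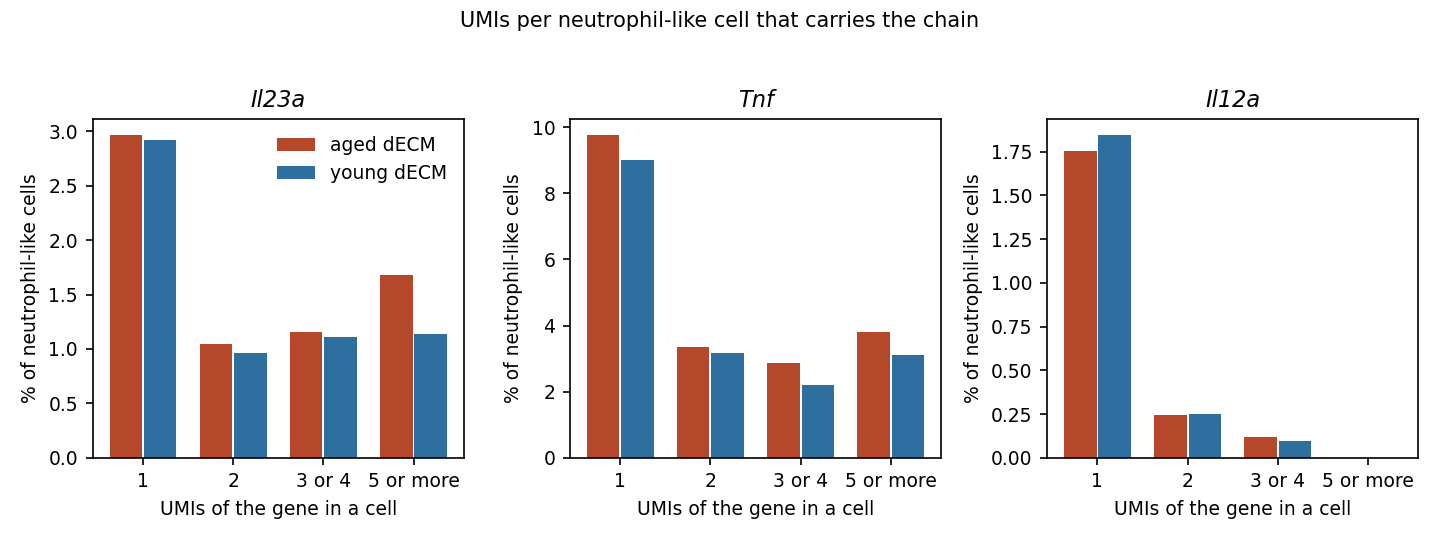
Percent of neutrophil-like cells (vertical axis, linear and different in each panel) by the number of UMIs of Il23a, Tnf or Il12a they hold, aged matrix pool left of young. For Il23a the pools are level at 1 UMI, at 2.96% and 2.92%, and part at 5 or more, at 1.68% and 1.14%; no cell reached 5 UMIs of Il12a.

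The difference was also uneven over clusters. Il23a was higher in the aged pool in 5 of 11 neutrophil-like clusters, each with an interval above 1, namely clusters 0, 1, 7, 12 and 13. In cluster 12 a single aged cell held 50 of 89 UMIs, and without the top cell of each pool its fold was 1.15 (0.686 to 1.95), which leaves 4 clusters with an interval above 1. The largest of these folds was 2.45 (1.84 to 3.29) in cluster 13, and in cluster 7 the fold was 1.57 (1.43 to 1.73). The remaining 6 clusters had folds under 1, with the interval below 1 in cluster 3 at 0.557 (0.392 to 0.786) and in cluster 19, led by Ly6g and Ngp, at 0.130 (0.0329 to 0.372). In cluster 19 these were 4 UMIs in 2 aged cells and 27 UMIs in 3 young cells, 13 of them in 1 cell, so its interval is too narrow. Tnf was higher in the aged pool in 8 of 11 clusters, 4 of them with an interval above 1, and cluster 19 had the only interval below 1. There 1 young cell held 37 of 73 Tnf UMIs, and without the top cell of each pool the fold was 0.764 (0.459 to 1.27), so that no interval lay below 1. Without cluster 7 the log2 ratio was 0.43 for Il23a and 0.21 for Tnf, and with the same mix of clusters in both pools it was 0.54 and 0.28. Both place Il23a under the 1.5-fold limit. Among cells with 1 hashing tag (5953 aged and 6440 young) the log2 ratio of Il23a was 0.77. Among the others it was 0.57, also under the 1.5-fold limit. But 5911 of the tagged aged cells carried H-HTO-2 and 6410 of the tagged young cells carried H-HTO-4, so tag and pool cannot be told apart.

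Fibroblast and monocyte markers were higher in the aged pool in the same cells. All 9 fibroblast markers had UMIs in neutrophil-like cells and summed to 284 CPM in the aged pool and 148 CPM in the young pool. All 10 monocyte markers were present and summed to 271 and 218 CPM, while all 12 macrophage markers summed to 435 and 439 CPM and all 6 plasmacytoid dendritic markers to 14.1 and 14.3 CPM. Of 7 mature dendritic markers 6 and 5 had UMIs, summing to 5.38 and 3.82 CPM, with Ccl22 at 0 in both pools. Of 10 NK markers 9 had UMIs, summing to 4.37 and 3.86 CPM, with Klra8 at 0 in both pools. The part of these markers in the Il23a and Tnf ratios was not tested.

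The IL-12 receptor was found in NK-like cells. Il12rb2, the signalling chain of the IL-12 receptor, was found in NK-like cells at 44.8 CPM (34.6 to 57.1) in the aged pool and 48.2 CPM (35.0 to 64.7) in the young pool, while the next named class, the plasmacytoid dendritic-like one, held 1 UMI in all. Il12rb1, which the IL-12 and IL-23 receptors share, had 6.89 CPM (3.31 to 12.7) and 15.3 CPM (8.38 to 25.7) in NK-like cells. Il23r, which makes the IL-23 receptor specific, had 5 UMIs in all kept aged cells and 5 in all kept young cells, and none in NK-like cells, which allows up to 2.07 and 3.29 CPM there. Il27ra, the IL-27 receptor chain, had 31.7 and 25.2 CPM in NK-like cells. Il6st, the signalling chain that IL-27 and IL-35 receptors use, had 138 and 90.5 CPM in fibroblast-like cells and 108 and 91.2 CPM in endothelial-like cells.

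TNF receptors were broad. Tnfrsf1a, which signals cell death and NF-kB, had 159 and 158 CPM in neutrophil-like cells, 187 and 192 CPM in endothelial-like cells and 114 and 113 CPM in fibroblast-like cells. Tnfrsf1b, the receptor restricted mainly to blood and endothelial cells, was at 274 and 248 CPM in neutrophil-like cells. Adam17, which sheds TNF, had 136 and 128 CPM in neutrophil-like cells, and Rhbdf2, which carries ADAM17 to the surface, 40.1 and 35.3 CPM. Response cytokines differed in their cells. Ifng, which IL-12 induces, had 222 UMIs in 247 aged NK-like cells (153 CPM, 134 to 175) and 58 UMIs in 143 young ones (63.5 CPM, 48.2 to 82.1). The spread of these Ifng UMIs over cells is not given here, and such intervals are too narrow where UMIs bunch in few cells. Il17a, the product associated with IL-23 signalling, had 0 UMIs in aged NK-like cells and 10 in young ones, all in 2 cells. Il10, which restrains Il12b and Tnf, had 80.9 and 57.9 CPM in macrophage-like cells and 1.62 and 1.07 CPM in neutrophil-like cells.

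**Figure D5:**
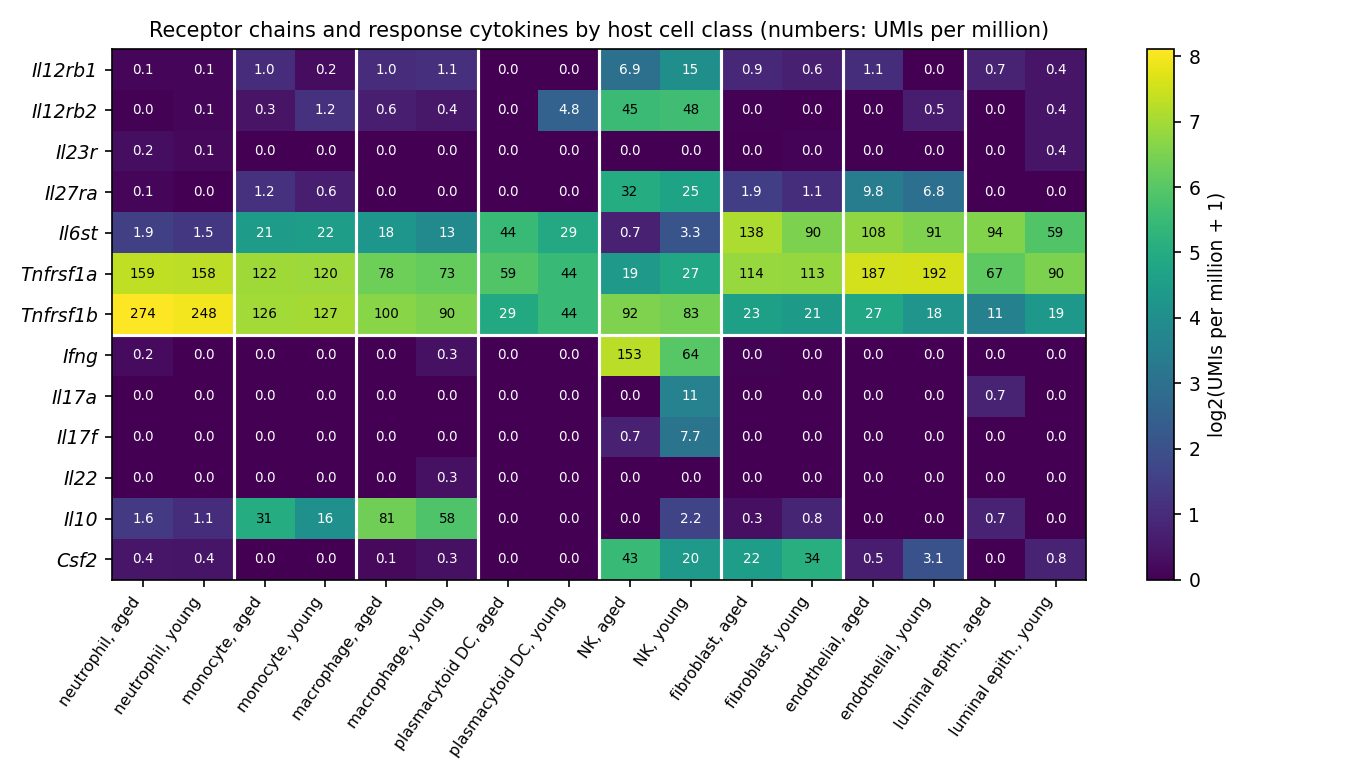
CPM (printed in each square; colour is log2 of the value plus 1) of 7 receptor chains and 6 response cytokines in 8 host cell classes, aged matrix pool left of young within each class. Il12rb2 and Ifng are highest in NK-like cells, at 44.8 and 48.2 and at 153 and 63.5, Il23r is at or near 0 in every class shown, and Tnfrsf1a is found in neutrophil-like, endothelial-like and fibroblast-like cells alike.

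The lists around these chains, which were chosen with earlier results of these data known, shifted little in neutrophil-like cells. Of 12 NF-kB response genes all 12 were measured, 10 had a ratio above 1 and none was apart, with a median log2 ratio of 0.17 beside 0.05 for all measured genes. The adhesion gene Icam1 was highest, at 121 and 85.2 CPM (1.42-fold, 1.34 to 1.503), followed by Ccl4 at 1610 and 1275 CPM (1.26-fold, 1.24 to 1.28). Il1b, at 17160 and 17750 CPM, and Nfkbia, which encodes the inhibitor IkB-alpha, at 5540 and 5843 CPM, had ratios below 1. Of 10 regulators 8 were measured, 6 had a ratio above 1 and none was apart, with a median log2 ratio of 0.08. Nfkb1, which encodes an NF-kB subunit, was highest at 94.95 and 71.6 CPM (1.33-fold, 1.24 to 1.42). Rel, an NF-kB subunit that drives Il12b and Il23a in mouse myeloid cells, had 232 and 205 CPM. Zfp36, whose product degrades Tnf messenger RNA, had 1496 and 1600 CPM. Irf8 and Batf3, which programme Il12b-producing dendritic cells, had 1.70 and 1.16 CPM and 0.437 and 0.343 CPM in neutrophil-like cells. Of 6 TNF family and processing genes 4 were measured, 4 had a ratio above 1 and none was apart (median 0.17), and of 7 receptor genes 2 were measured, 2 had a ratio above 1 and none was apart (median 0.08). Among all measured genes 65.4% had a ratio above 1. Under TMM scaling the ratios of Cxcl2, Nfkbiz, Rela, Relb, Irf1, Adam17, Tnfrsf1a and Il12a turn below 1, since they lie within the shift of that scaling.

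Tumour cells made some of the human counterparts. In 2001 aged pool and 2125 young pool tumour cells, human TNF had 56.2 CPM of human UMIs (54.5 to 57.9) and 52.9 CPM (51.3 to 54.5). It was found in 45.4% and 45.0% of these cells, at median depths of 30455 and 30942 human UMIs. A human TNF UMI was held by 0.696% and 0.820% of mouse cells, at median depths of 68 and 70 human UMIs. These shares do not compare levels. IL23A had 1.22 and 1.23 CPM and IL12A 1.80 and 2.20 CPM. IL12B had 7 UMIs in the aged pool and 5 in the young pool, so the shared chain was at 0.0905 and 0.0621 CPM in tumour cells too. EBI3 had 7 and 13 UMIs and IL27 had 0. TNFRSF1A, the TNF receptor of epithelium, had 32.8 and 35.1 CPM in tumour cells.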

How the data were processed

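Single-cell RNA was captured with the 10x Genomics 3' v3.1 kit, per the labels' protocols. The values are UMI counts per gene and barcode that the authors deposited as filtered matrices, made with Cell Ranger 6.0.0 against GRCh38 and mm10, per the submitters' processing notes. Each pool has 1 gene expression library and 1 library of antibody tags, and gene counts summed to 188583544 in the aged pool and 187438011 in the young pool.

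Mouse barcodes (at least 0.9 of gene UMIs) were kept with 500 UMIs, 300 genes and at most 20% mitochondrial counts. Scrublet in scanpy 1.11.5 (expected rate 0.1, score limit 0.25) marked 8.28% of aged and 8.04% of young mouse cells as doublets, which were removed. Cells were clustered with leidenalg 0.10.2 at resolution 1 on 30 principal components and 15 neighbours, with the 4 members, Ebi3 and Il27 left out of the variable genes, and clusters were named from marker lists. UMIs were summed per class and pool and scaled to 1000000 mouse UMIs, with exact intervals from scipy 1.17.1. edgeR 4.0.16 in R 4.3.3 gave TMM factors for an alternative. Thinning kept cells of at least 2000 UMIs, 4760 of 9883 aged and 4927 of 9546 young neutrophil-like cells. A cell counted as having 1 hashing tag where its leading tag had at least 10 UMIs and 3 times the next. The interval code and fold rule were tested on simulated data. Other alternatives were a purity of 0.98, doublets kept, a minimum of 1000 UMIs, resolution 0.5, and a minimum of 50 CPM.

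The members and gene lists were chosen with earlier results of these data known. Named genes were the members, their partner chains, receptors, TNF family and processing genes, effector cytokines, regulators, NF-kB response genes, human counterparts, and the 5 genes most like each member over clusters. UMIs of 1 cell are not independent. No test was possible with 1 library per group.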

Additional observations from a re-analysis of the deposited data

Results flagged for a closer look

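Il12b UMIs lay outside the cells used for the comparisons. Mixed human and mouse barcodes, which were left out of every class, held 50 Il12b UMIs in 2 aged barcodes and 27 in 5 young barcodes. Mouse barcodes removed for their doublet score held 23 Il12b UMIs in 2 young barcodes, 22 of them in 1 barcode. Kept cells held 20 in the aged pool and 5 in the young pool. In all, C1qa was found in 16 of the 17 barcodes with Il12b.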

How the results depend on the processing

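The log2 ratios of Il23a and Tnf kept their sign under every alternative below, while that of Il12a, near 0, ran from -0.185 to 0.20. The log2 ratio of Il23a, 0.70 as reported, was 0.59 with TMM factors, 0.60 with median-of-ratios factors, 0.82 after thinning to 2000 UMIs, 0.54 with the same cluster mix, 0.43 without cluster 7, 0.57 among cells without 1 hashing tag and 0.16 by share of cells. That of Tnf, 0.41 as reported, was 0.35 at purity 0.98, 0.30 with TMM factors, 0.32 with median-of-ratios factors, 0.28 with the same cluster mix, 0.21 without cluster 7, 0.35 without 1 tag and 0.18 by share of cells. The cluster mix, cluster 7, tag and share settings were chosen after seeing the data. At purity 0.98 neutrophil-like cells held 79.0% (aged) and 66.0% (young) of Il23a UMIs, 42.6% and 41.2% of Tnf and 59.9% and 62.7% of Il12a. They were then 1677 of 4389 aged and 1728 of 3809 young mouse cells. With each cell counted once they held 90.0% and 88.0% of Il23a, 74.6% and 75.2% of Tnf and 85.0% and 84.3% of Il12a. The order of the pools thus turned for Tnf with each cell counted once and for Il12a at purity 0.98. Cells with Il12a and Ebi3 numbered 11 and 14 at purity 0.98 and 4 and 8 after thinning, aged then young. Cells with Il27 and Ebi3 numbered 2 in the aged pool at purity 0.98, and 1 and 0 after thinning. Cells with Il23a and Tnf numbered 128 and 131 at purity 0.98 and 200 and 167 after thinning, so the order of the pools turned at purity 0.98, as it did for Il27 with Ebi3 after thinning. Genes at least 1.5-fold higher, 17 as reported, were 7 at a minimum of 50 CPM and 9 with either scaling, and genes lower, 2 as reported, were 1, 6 with TMM and 4 with median-of-ratios. Tnf had 1 cluster interval below 1, and 0 without the top cell of each pool, a setting also chosen after seeing the data. The causes were not tested. Purity keeps fewer cells and thinning fewer UMIs. No paired analysis was possible because each group has 1 library, and no replicate could be left out.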
